A study of Mus musculus with 4 samples.

Results

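Axons are steered by a small set of ligand and receptor families, and 48 genes of these families were followed in Neuro-2A, a line of mouse neuroblastoma cells, with and without overexpressed Zac1. The members were chosen by gene symbol alone, as every row with a gene ID named for a semaphorin, plexin, neuropilin, ephrin, Eph receptor, Slit, Robo, netrin, Unc5 receptor, Dcc or collapsin response mediator protein. They were 48 of 12861 genes, and 45 of them passed the minimum mean of 10 that was set for a test. The symbol rule also took Unc50, which is no netrin receptor and is kept here only because its name matches. Robo genes, Dcc, Ntn1 and the Sema5 genes were not analysed here.

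Cells were lipofected with a pRK5 plasmid that carried either Zac1 or, as control, the bacterial chloramphenicol acetyltransferase gene (CAT), and RNA was taken 16 h later. All 4 libraries thus came from transfected cells of the same line, 2 with CAT and 2 with Zac1, each from its own transfection, named here by the number in the sample title, 9 or 12. Zac1 is a transcription factor with zinc fingers, the product of Plagl1. Digital gene expression counts 1 short tag per polyadenylated transcript, so a normalised count does not grow with transcript length. A population was measured as a whole, so fewer cells with an RNA and less of it per cell cannot be told apart.

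In the developing nervous system these families act as short-range and long-range signals. Ephrins are membrane-bound ligands of Eph receptor tyrosine kinases, and both sides can signal into their own cell. Semaphorins act on plexins, with neuropilins as co-receptors for the secreted kinds. Netrins attract or repel axons through Dcc and Unc5 receptors, Slits repel through Robo receptors, and collapsin response mediator proteins carry semaphorin signals to microtubules. Sympathetic neurons, the lineage from which neuroblastoma arises, use several of these cues as they migrate and extend axons.

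Recovered tag totals lay between 11578920 and 13840674 per library. Plagl1 had 0 counts in both CAT libraries and a normalised count of 3397 in Zac1 replicate 9 and 1475 in Zac1 replicate 12, as the labels require. Zac1 replicate 9 was the library least like the others. Its chi-square over degrees of freedom against each of them was 31.7 to 38.4, while comparisons among the remaining 3 gave 12.2 to 12.9. Of 15 neuronal and noradrenergic markers 13 were listed, with a summed normalised count of 45900 and 49400 in the CAT libraries and 40700 and 45400 in the Zac1 libraries, and 0 of them passed in limma in either direction. Fibroblast markers summed to 15 to 35.6, endothelial markers to 14.8 to 27.3 and macrophage markers to 7.45 to 12.1 in a library, with 3 of 8, 3 of 6 and 2 of 7 listed. Of 8 glial markers 4 were listed, at 333 and 243 in the CAT and 416 and 387 in the Zac1 libraries, most of it Mbp. S100b, also on the glial list, had no counts with CAT and stood at 26.3 and 9.86 in Zac1 replicates 9 and 12, and its mean lay under the minimum for a test. What part this has in the results was not tested.

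What was sequenced of each transcript is the stretch that follows the DpnII site nearest to its 3′ end. All 48 members had such a site in the longest transcript of the GENCODE vM21 annotation, and none of the 48 predicted tags of 20 bases was shared with another gene. The predicted tags of 6 members with large differences between the groups are given to show the readout, with the DpnII site in capitals. Which tags the authors assigned to a gene is not given in the sources used here.

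Efnb3: GATCaaagctgcccttggcc

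Efna3: GATCatagttgttagacttt

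Sema3f: GATCtacaaaacacagggag

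Sema7a: GATCagagtccagggacagg

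Epha2: GATCccctgcaacagacatt

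Plxnb3: GATCcctaccctctttccca

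These tags differ widely in base composition, from a GC content of 30% for Efna3 to 60% for Efnb3 and Sema7a.

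Among axon guidance genes only Efnb3 passed the test across all genes. Of 45 members tested 1 rose and 0 fell in limma (Benjamini-Hochberg adjusted p under 0.05), beside 0.962% of 11433 genes that rose and 0% that fell, and a count of 1 is too small to be read against that share. With single libraries left out between 0 and 4 members rose, and the 110 genes that rose among all genes became 1 without Zac1 replicate 9 and 1 without Zac1 replicate 12. Members that lay higher without passing were more frequent. At an unadjusted p under 0.05 in limma 15 members (33.3%) were higher in the Zac1 libraries, where the background is 5.23%, and 0 were lower, where it is 0.962%. On recovered counts 4 members (Efnb3, Epha2, Plxnb3 and Sema7a) rose in the quasi-likelihood test of edgeR (background 1.31%). In DESeq2 2 rose (Efnb3 and Epha2, background 1.25%), and 0 fell in either. Of these, Epha2, Plxnb3 and Sema7a had a CAT mean under 10 and entered the test only through their Zac1 libraries. Both Zac1 libraries lay above both CAT libraries for 20 of the 45 (44.4%) and below them for 6 (13.3%), with background shares of 17.2% and 16.7%. The median log2 fold change of the members was 0.27, and the same with Epha2 at its lower bound, against -0.01 over all genes tested. Of the 45, 5 had a CAT mean under 10 and entered the test only through their Zac1 libraries, and all 5 are among the 15 and among the 20. Of the other 40 members, 10 were higher at an unadjusted p under 0.05 in limma and 15 lay above without overlap, where the background among genes with a CAT mean of at least 10 is 4.08% and 15.8%.

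The 15 members higher at an unadjusted p under 0.05 were of low and middle abundance. Among members with a mean normalised count of 10 to 100 over the 4 libraries, 10 of 16 were higher at an unadjusted p under 0.05 in limma, against 10.9% of 3052 genes of that abundance. Of these 10, 5 have a CAT mean under 10 and entered the test only through their Zac1 libraries. Among genes of that abundance with a CAT mean of at least 10 it was 5 of 11 members against 6.83% of 2797 genes. Between 100 and 1000 it was 5 of 21 against 4.17%, and from 1000 upward 0 of 8 against 0.741%. The abundant members, among them Nrp2, Unc5b, Slit3 and Crmp1, thus showed little difference between the groups. Summed over all 48 members the normalised count was 23685 and 24940.5 in the CAT libraries and 25244 and 25156 in the Zac1 libraries.

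**Figure D1:**
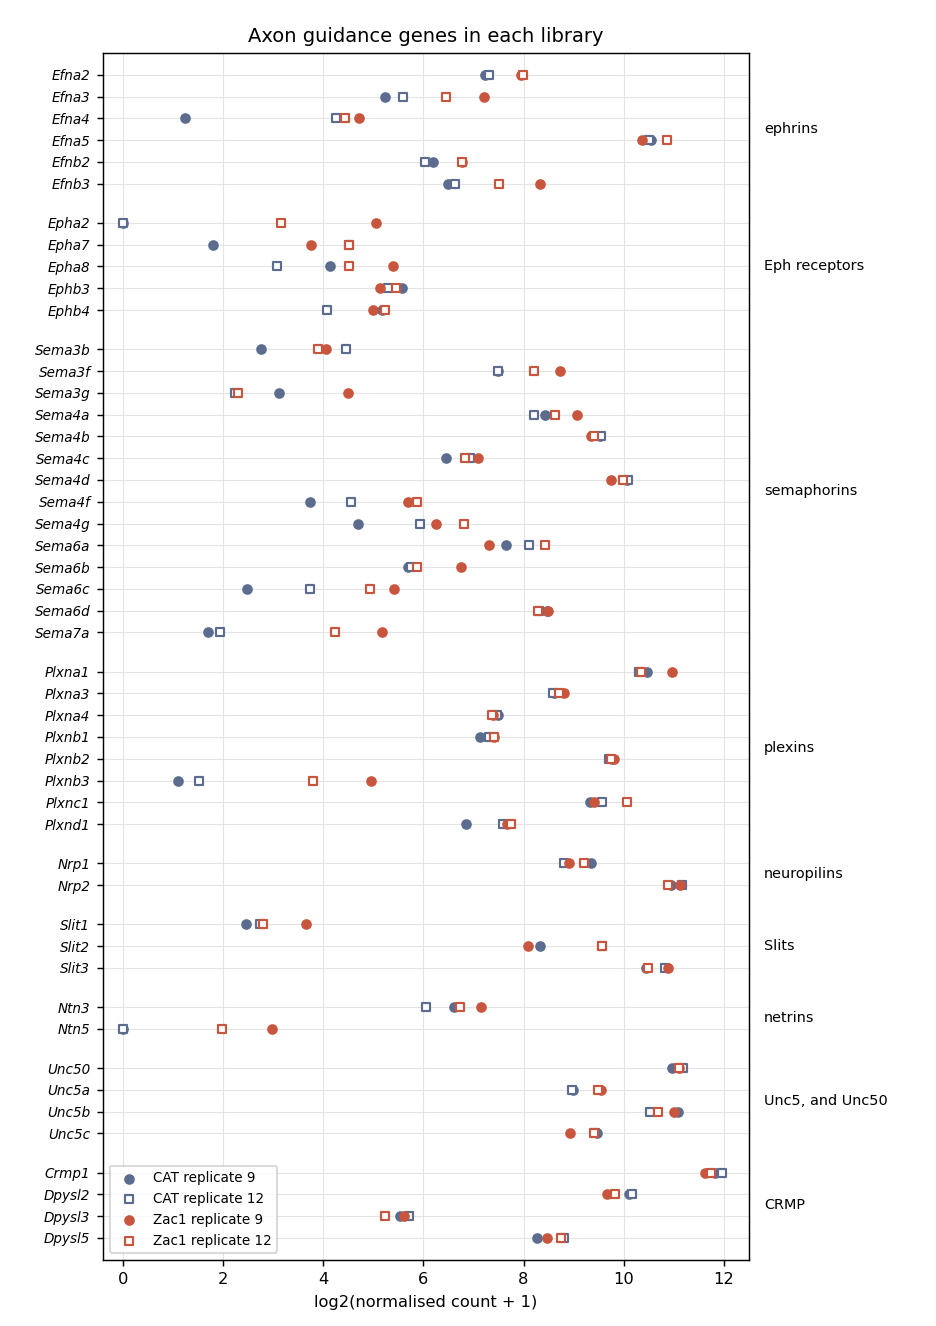
Level of each of the 48 axon guidance genes as log2(normalised count + 1) (x axis) in the 4 libraries, grouped by family, with circles for replicate 9, squares for replicate 12, blue for CAT and red for Zac1. Efnb3, Efna3 and Sema7a have both red points to the right of both blue points, while the points of Nrp2 and Plxnb2 lie together.

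**Figure D2:**
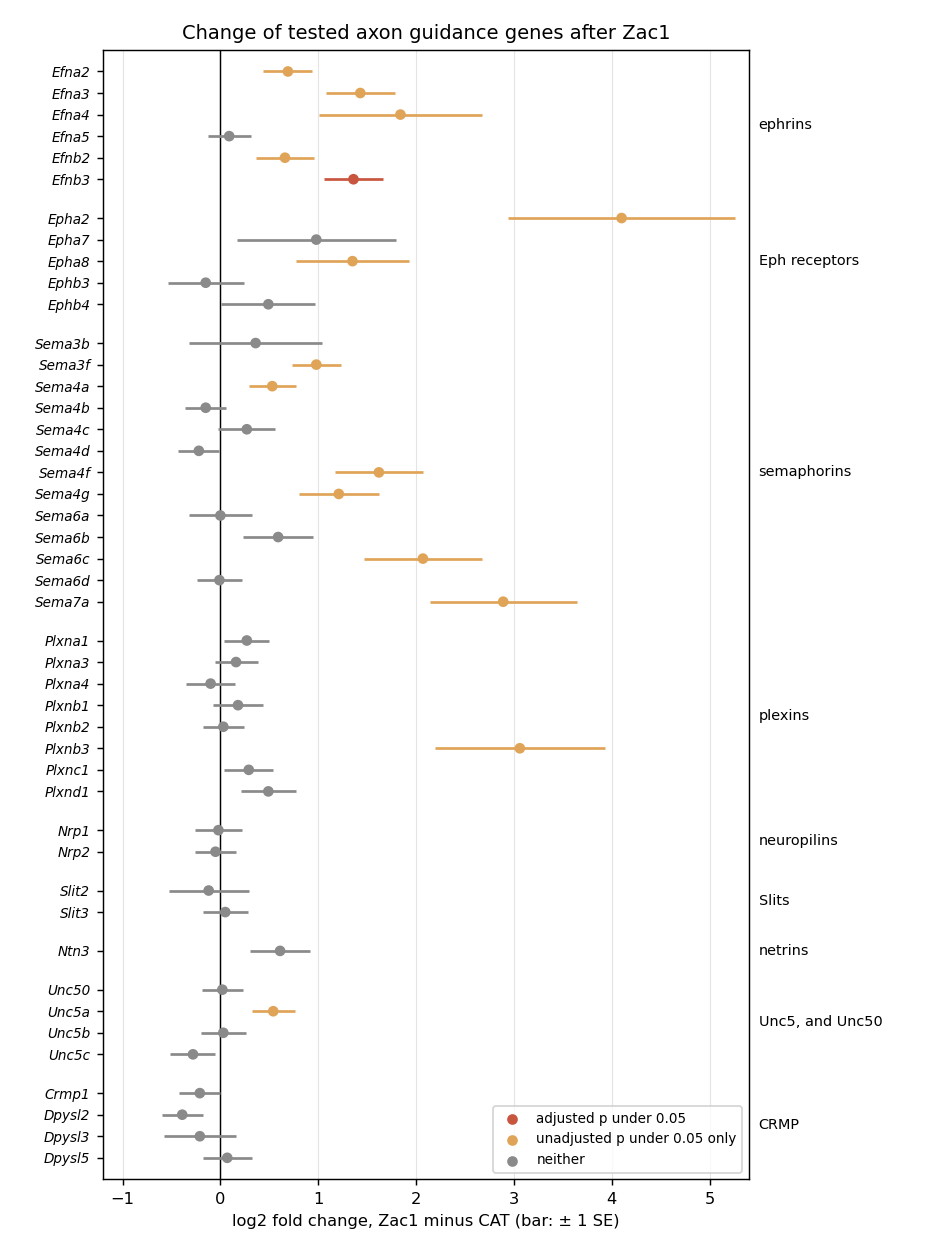
Log2 fold change of Zac1 over CAT (x axis, bar ± 1 SE, limma) for the 45 tested axon guidance genes, grouped by family. Efnb3 alone is coloured for an adjusted p under 0.05, and the other 14 coloured genes pass only at an unadjusted p under 0.05 and all lie above 0.

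Of the 6 ephrins 1 rose and 0 fell in limma (adjusted p under 0.05), and 5 had both Zac1 libraries above both CAT libraries, beside 0.962% and 17.2% of all genes tested. Of these 5, Efna4 had a CAT mean of 9.68, under the minimum of 10, and entered the test only through its Zac1 libraries. Efnb3, a transmembrane ligand known as a midline barrier to corticospinal axons, was at normalised counts of 88.8 and 98.6 in CAT replicates 9 and 12 and at 323 and 181 in Zac1 replicates 9 and 12. It rose from 93.7 ± 6.87 to 252 ± 100.2 (SD, n = 2), which is 2.57-fold on the log2(value + 1) scale (log2 fold change 1.36 ± 0.30 SE, limma adjusted p = 0.0352). The groups did not overlap, and the Zac1 libraries differed more from each other than the CAT libraries did. The call did not hold without CAT replicate 9 (1.29, limma adjusted p = 0.102), without Zac1 replicate 9 (0.94, 0.824) or without Zac1 replicate 12 (1.77, 0.127). It was also lost without a variance trend (limma adjusted p = 0.225) and after a correction for GC content (1.23, limma adjusted p = 0.0936). The adjusted p ran from 7.88e-05 to 0.824 over the 13 alternatives.

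Efna3, a ligand held in the membrane by a lipid anchor like other A-class ephrins, was at 36.7 and 47.0 in the CAT libraries and at 148 and 87.0 in Zac1 replicates 9 and 12. Its log2 fold change of 1.43 ± 0.35 (SE) was as large as that of Efnb3, and it did not pass (limma adjusted p = 0.0730). It passed under equal column totals (limma adjusted p = 0.0461) and without CAT replicate 12 (1.60, limma adjusted p = 0.0410), while its adjusted p ran from 0.00145 to 0.911 over the alternatives. Efna2, which helps to order retinal axons in the midbrain, was at 149 and 159 in the CAT and at 245 and 253 in the Zac1 libraries. In both groups its replicates lay close together, and its log2 fold change was 0.69 ± 0.25 (SE; limma adjusted p = 0.384). Efnb2, the ligand of Ephb4 and a marker of arteries, was at 72.1 and 64.7 in the CAT and at 109 and 108 in the Zac1 libraries (log2 fold change 0.66 ± 0.30 SE, limma adjusted p = 0.739). Efna4 was at 1.345 in CAT replicate 9 against 18.02 in CAT replicate 12, and at 25.3 and 20.8 in the Zac1 libraries. Its log2 fold change of 1.84 ± 0.83 (SE; limma adjusted p = 0.739) was set by 1 CAT library, at 0.33 without CAT replicate 9 and 3.35 without CAT replicate 12. Efna5, the most abundant ephrin, overlapped between the groups, at 1488 and 1458 in the CAT and 1311 and 1864 in the Zac1 libraries.

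The 5 listed Eph receptors had means over the 4 libraries between 10.01 and 40.4 normalised counts, against 1530.3 for Efna5 and 16.3 to 201 for the other ephrins. Epha2, a receptor best known from epithelia, had 0 counts in both CAT libraries and 33 and 8 recovered counts in Zac1 replicates 9 and 12. Set against 3 counts for each CAT library it was at least 6.59-fold higher, at least 2.59-fold higher without Zac1 replicate 9 and at least 10.5-fold higher without Zac1 replicate 12. Its mean of 10.01 was just above the minimum for a test, reached only through the Zac1 libraries, and it did not pass in limma (adjusted p = 0.143). It passed with DESeq2 (adjusted p = 0.0172), with the quasi-likelihood test of edgeR (adjusted p = 0.0195) and in limma without a variance trend (adjusted p = 0.0460), and its adjusted p ran from 0.0172 to 0.818 over the alternatives.

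Epha8 was at 16.5 and 7.41 in the CAT and at 40.9 and 21.7 in the Zac1 libraries, without overlap (log2 fold change 1.35 ± 0.58 SE, limma adjusted p = 0.671). Its value was 0.82 without CAT replicate 12 and 0.91 without Zac1 replicate 9. The remaining receptors overlapped between the groups. Ephb3, which takes part in the formation of brain commissures, was at 46.5 and 38.4 in the CAT and at 34.0 and 42.5 in the Zac1 libraries. Ephb4, the venous receptor of ephrin B ligands, was at 35.2 and 15.8 against 31.1 and 36.6, and Epha7 at 2.49 and 21.8 against 12.6 and 21.8.

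Of 14 semaphorins 13 were tested and 0 passed in limma (adjusted p under 0.05), while 6 were higher at an unadjusted p under 0.05 (background 5.23%) and 0 lower (background 0.962%). Of the 6, Sema6c and Sema7a had a CAT mean under 10 and entered the test only through their Zac1 libraries. Among genes with a CAT mean of at least 10 the background of higher genes is 4.08%. Groups did not overlap for 9 of the 13 semaphorins tested. In 7 the Zac1 libraries were higher (background 17.2%), Sema6c and Sema7a among them, and in 2 lower, a share near the background of 16.7%. Sema3f, a secreted repellent that acts through Nrp2, stood at 179 in either CAT library, and in Zac1 replicates 9 and 12 at 421 and 297. Its mean was 179 ± 0.400 in the CAT and 359 ± 87.7 (SD, n = 2) in the Zac1 libraries, a log2 fold change of 0.98 ± 0.25 (SE) that did not pass (limma adjusted p = 0.0945). Of the other secreted members, Sema3b overlapped at 5.79 and 20.8 in the CAT and 15.5 and 13.8 in the Zac1 libraries. Sema3g, just under the minimum mean at 9.19, was at 7.68 and 3.70 against 21.5 and 3.93.

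Sema7a, which is anchored by a lipid and is a ligand of Plxnc1 and of integrins, was close to absent with CAT and present in both Zac1 libraries. It had 2 and 3 recovered counts in the CAT and 36 and 18 in the Zac1 libraries, with a log2 fold change of 2.89 ± 0.75 (SE; limma adjusted p = 0.0945). It passed in limma without a trend (adjusted p = 0.0295) and in edgeR's quasi-likelihood test (adjusted p = 0.0325), and its adjusted p ran from 0.0150 to 0.818 over the alternatives.

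Transmembrane semaphorins lay on both sides of control. Sema4f was at 12.4 and 22.6 in the CAT and at 50.5 and 57.4 in the Zac1 libraries (log2 fold change 1.62 ± 0.45 SE, limma adjusted p = 0.133). Unlike most of the 15 members it was lower in Zac1 replicate 9 than in replicate 12. Sema6c was at 4.59 and 12.3 in the CAT and at 41.8 and 29.6 in the Zac1 libraries (2.07 ± 0.60 SE, limma adjusted p = 0.157), and it passed without CAT replicate 12 (2.70, limma adjusted p = 0.0337) but not without CAT replicate 9 (1.45, limma adjusted p = 0.964), in a range over the alternatives of 0.0187 to 0.964. Sema4g was at 24.8 and 60.3 in the CAT and 74.7 and 111 in the Zac1 libraries, with a log2 fold change of 1.21 ± 0.41 (SE; limma adjusted p = 0.331) that was 0.59 without CAT replicate 9. Without CAT replicate 12 it was 1.84 and passed (limma adjusted p = 0.0204, range over the alternatives 0.0204 to 1). Sema4a, a ligand with roles in retina and immune cells, was at 345 and 296 against 539 and 396 (0.53 ± 0.24 SE, limma adjusted p = 0.743).

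The abundant class 4 members lay lower by small amounts that did not pass. Sema4d, the ligand of Plxnb1, was at 1069 and 1094 in the CAT and 858 and 1011 in the Zac1 libraries (log2 fold change -0.22 ± 0.21 SE, limma adjusted p = 0.983). Sema4b was at 733 and 747 against 649.8 and 680.3 (-0.15 ± 0.21 SE, limma adjusted p = 0.983). In the remaining class 4 and class 6 members, Sema4c, Sema6a, Sema6b and Sema6d, log2 fold changes ran from -0.01 to 0.59, and only in Sema6b did the groups not overlap.

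Plexins, the signalling receptors of semaphorins, were mostly at like levels in both groups. Of 8 tested, 0 passed in limma (adjusted p under 0.05), 1 was higher at an unadjusted p under 0.05 (background 5.23%) and 0 lower (background 0.962%). That 1 was Plxnb3, a receptor of Sema5a, with 1 and 2 recovered counts in the CAT and 31 and 13 in the Zac1 libraries. Its CAT mean of 1.51 lay under the minimum for a test, which was reached only through its Zac1 libraries. Its inclusion thus cannot be read against the background of all genes. The ratio of its counts scaled to library size was 14.1 (exact 95% interval 4.53 to 71.2, counting error only), and 8.43 without Zac1 replicate 9. Its limma adjusted p was 0.147, or 0.0427 without a trend, and edgeR's quasi-likelihood test gave 0.0396, with 0.0395 to 0.824 as the range over the alternatives.

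The other 7 plexins had log2 fold changes between -0.10 and 0.49. Among them the Zac1 libraries lay above without overlap for Plxna3, Plxnb1 and Plxnd1 (background 17.2%) and below for Plxna4 (background 16.7%). Plxna1, the most abundant and a partner of neuropilins, was at 1422 and 1260.2 in the CAT and 1986 and 1304 in the Zac1 libraries, so that its groups overlapped. Plxnb2 was nearly level in all 4 libraries, at 875, 838, 899 and 853 in CAT 9, CAT 12, Zac1 9 and Zac1 12. Plxnc1, the receptor of Sema7a, was at 640.4 and 761 in the CAT and 679.8 and 1075 in the Zac1 libraries. Plxnd1, the receptor of Sema3e, was at 115 and 191 against 204 and 214 (0.49 ± 0.28 SE, limma adjusted p = 0.928).

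Neuropilins were abundant and overlapped between the groups. Nrp2, the co-receptor of Sema3f, was at 1984 and 2287 in the CAT and at 2244 and 1899.5 in the Zac1 libraries, a log2 fold change of -0.05 ± 0.21 (SE; limma adjusted p = 0.990). Nrp1, the co-receptor of Sema3a, was at 647 and 449 against 479 and 587 (-0.02 ± 0.24 SE, limma adjusted p = 0.997). Under equal column totals the value was 0.02 for Nrp2 and 0.04 for Nrp1, and the sign of both also changed with single libraries left out.

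**Figure D3:**
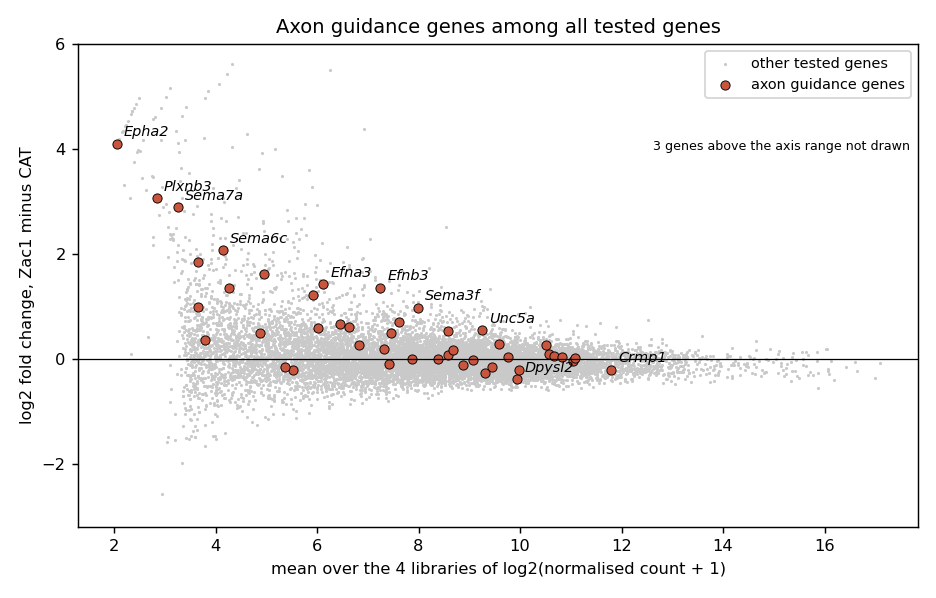
Log2 fold change of Zac1 over CAT (y axis) against the mean over the 4 libraries of log2(normalised count + 1) (x axis) for the 45 tested axon guidance genes (red) and the other tested genes (grey). Epha2, Plxnb3, Sema7a and Sema6c lie at low abundance with the largest values, and abundant members such as Crmp1 lie close to 0 or just below it.

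Slits and netrins gave no call. Slit3, the most abundant of the Slits, was at 1392 and 1819 in the CAT and 1887 and 1431 in the Zac1 libraries (log2 fold change 0.05 ± 0.23 SE, limma adjusted p = 0.991). Slit2 varied with the replicate number more than with the plasmid, at 319 and 269.9 in the libraries numbered 9 and 754 and 758 in those numbered 12. Slit1 lay under the minimum mean, at 4.47 and 5.64 in the CAT and 11.7 and 5.92 in the Zac1 libraries. Ntn3, a netrin with affinity for Unc5 receptors, was at 96.3 and 65.6 against 141 and 105, without overlap (0.61 ± 0.31 SE, limma adjusted p = 0.898). Ntn5, also under the minimum, had 0 counts in both CAT libraries and 7 and 3 in the Zac1 libraries. Set against 3 counts for each CAT library it was at least 1.61-fold higher, and without Zac1 replicate 9 the 3 remaining counts did not exceed the floor.

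Of the Unc5 receptors, which mediate repulsion from netrins, only Unc5a was higher in both Zac1 libraries than in both CAT libraries (background 17.2%). It was at 510.4 and 499 in the CAT and at 752 and 721 in the Zac1 libraries, with replicates close together in both groups. The log2 fold change of 0.54 ± 0.22 (SE) did not pass (limma adjusted p = 0.557). Its transcript has a GC content of 62.7%, and after the correction for GC content its value was 0.30. Unc5b, the most abundant receptor of the family, overlapped at 2183 and 1478 against 2046 and 1650.3. Unc5c was at 709 and 691 in the CAT and 488 and 680.3 in the Zac1 libraries (-0.28 ± 0.23 SE, limma adjusted p = 0.983). Its Zac1 libraries lay below its CAT libraries without overlap (background 16.7%). Unc50 was at 2003 and 2340.4 against 2204 and 2194.

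None of the 4 genes for collapsin response mediator proteins lay above control without overlap (background 17.2%). Crmp1 was the most abundant of all 48 genes, at 3615 and 3995 in the CAT and 3145 and 3452 in the Zac1 libraries (log2 fold change -0.21 ± 0.21 SE, limma adjusted p = 0.983). Dpysl2, whose protein binds tubulin and promotes axon growth, was at 1095 and 1156 against 812 and 908, the most negative value of the 45 tested members (-0.39 ± 0.21 SE, limma adjusted p = 0.923). In both genes the Zac1 libraries lay below the CAT libraries without overlap (background 16.7%). A family of 4 genes is too small to be read against these shares. Dpysl5 and Dpysl3 overlapped, at 309 and 449 against 354 and 428 for Dpysl5 and at 45.6 and 51.6 against 47.6 and 36.6 for Dpysl3.

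Other genes of axon guidance signalling, from a list of 99 partners, co-receptors and cytoplasmic effectors outside these families, were read from the same fit. Of these 77 were listed and 69 tested, of which 1 rose and 0 fell in limma (adjusted p under 0.05), beside 0.962% of all genes that rose, a share near that of the partners. Their median log2 fold change was 0.10. Sh3bp1, a GTPase-activating protein for Rac, was at 149 and 176 in the CAT and at 684 and 427 in Zac1 replicates 9 and 12. Its mean was 162 ± 18.9 with CAT and 556 ± 182 with Zac1 (SD, n = 2). It rose by a log2 fold change of 1.74 ± 0.26 (SE; limma adjusted p = 0.00294). Its adjusted p was 0.0119 after the correction for GC content, and the call was lost without Zac1 replicate 9 (log2 fold change 1.40, limma adjusted p = 0.732), without Zac1 replicate 12 (2.07, 0.127) and without a trend (1.74, 0.0758). Its adjusted p ran from 1.84e-09 to 0.732 over the alternatives.

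The next 3 partners by unadjusted p did not pass. Rnd2, which takes part in the migration of cortical neurons, was at 829 and 829.5 in the CAT and at 2193 and 1224 in the Zac1 libraries (limma adjusted p = 0.0945). Draxin, a secreted repellent listed under the older symbol 2610109H07Rik, was at 21.1 and 19.7 against 79.7 and 50.4 (limma adjusted p = 0.0945). Flrt1, of a family of membrane proteins that bind Unc5 receptors, was at 28.7 and 16.8 against 81.7 and 51.4 (limma adjusted p = 0.142). All 3 were without overlap, which a choice by small p favours. Zac1 libraries lay above without overlap in 31.9% of the tested partners and 17.2% of all genes tested. In each of the 3 the value of Zac1 replicate 9 was the highest of the 4.

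Values from the library least like the others and the base composition of the members were measured beside these differences. The median transcript GC content of the 44 tested members other than Efnb3 was 56.6%, that of Efnb3 57.6%, and that of all genes tested with a matched transcript 50.1%. Of the 15 members higher at an unadjusted p under 0.05 in limma, the value in Zac1 replicate 9 exceeded that in replicate 12 for 12. Without Zac1 replicate 9 there were 12 such members (26.7%) against 3.98% of all genes, without Zac1 replicate 12 there were 14 (31.1%) against 9.8%, and after the correction for GC content 11 (24.4%) against 4.91%. These 11 were Efna2, Efna3, Efnb2, Efnb3, Epha2, Plxnb3, Sema3f, Sema4f, Sema4g, Sema6c and Sema7a. Of them Epha2, Plxnb3, Sema6c and Sema7a had a CAT mean under 10 and entered the test only through their Zac1 libraries. The same genes are also among the 12 and among the 14. The shares and backgrounds of these fits cover higher genes only. Lower values also occurred, as without Zac1 replicate 12 in Dpysl2 (log2 fold change -0.47) and Unc5c (-0.52). Nor were the shares and backgrounds limited to genes with a CAT mean of at least 10. They therefore cannot tell how much of the excess came from genes that entered in this way.

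**Figure D4:**
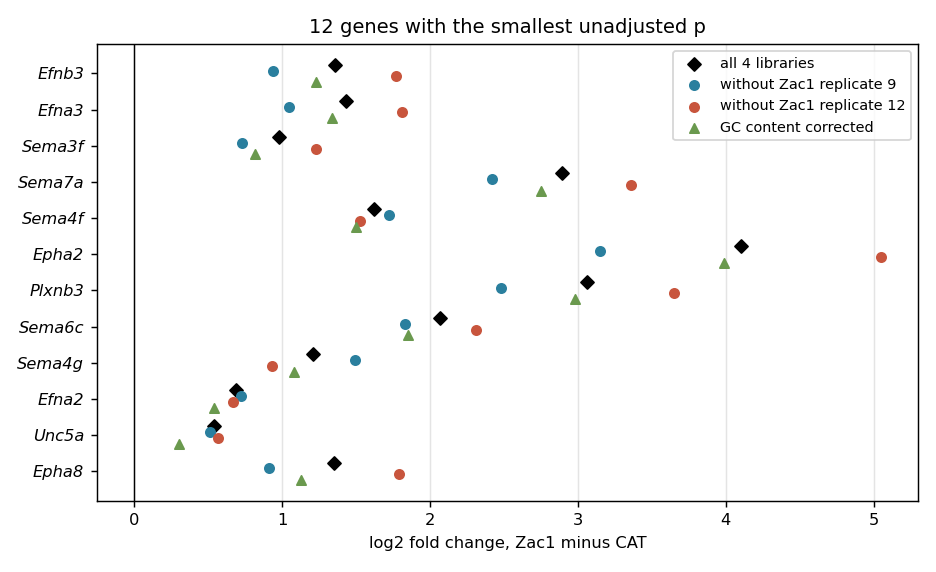
Log2 fold change of Zac1 over CAT (x axis) of the 12 axon guidance genes with the smallest unadjusted p, from all 4 libraries (diamonds), without Zac1 replicate 9 (blue), without Zac1 replicate 12 (red) and after correction for GC content (triangles). All values lie above 0, Efnb3 runs from 0.94 to 1.77, and Sema4f and Sema4g are higher without Zac1 replicate 9 than without Zac1 replicate 12.

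Promoter windows of 250 bases before the start site were found for 39 of the 48 members in the RefSeq table (GRCm38.p6), and none for Dpysl2, Dpysl3, Efnb3, Plxna1, Plxna4, Sema3b, Sema3f, Sema6a and Slit1. The palindrome GGGGCCCC, a sequence that Zac1 is known to bind, was found in 1 of the 39 members, Efnb2, and in 1.03% of 27025 genes, on either strand. Its shorter part GGGGCC, searched on both strands and overlapping every match of the palindrome, was found in 19 members (48.7%) and in 24.2% of genes. The members' windows were also richer in G and C, with a median of 65.2% against 52.4% over all windows. A match is a description of the sequence and not a binding site.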

How the data were processed

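The authors deposited 1 table of normalised signal for 4 libraries, pseudocounts after TMM normalisation per the name of the deposited table. The build was mm9 and the software edgeR, per the submitters' processing notes. How tags were mapped and assigned to genes is not given in the sources used here. Per the labels' protocols 2 µg of RNA and 15 PCR cycles went into each library. Inverting edgeR's quantile adjustment returned 100% of the values from whole counts within 1e-06. It used a library size for each column and, for all genes, a dispersion fitted in each group (mean of the groups 0.0364). The inversion and the fit were tested on simulated data. Of 12866 lines 5 had no gene ID and were left out, with at most 0.00897% of a library's counts.

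Members and lists were chosen with earlier results of these data known. limma 3.58.1 in R 4.3.3 was fitted on log2(value + 1) of 11433 genes with a mean of at least 10, with a variance trend, two-sided, and with Benjamini-Hochberg adjustment over all of them. Fold changes on this scale understate changes of low genes. With 2 libraries per group and prior degrees of freedom of 14.1, p-values rest mostly on the spread of genes of like abundance. Genes with 0 counts in the CAT libraries got a lower bound against 3 counts per library, and, as PCR copies are not independent molecules, intervals and bounds hold for counting error alone. edgeR 4.0.16 (quasi-likelihood) and DESeq2 1.42.0 were run on the recovered counts. Other alternatives were pseudocounts of 0.5 and 5, no filter, no trend, equal column totals, a replicate block, a GC correction and each library left out in turn. GC content came from the longest GENCODE vM21 transcript, matched for 97.6% of genes tested. Values in full are given for members past the threshold, the 12 with the smallest p, the 2 most abundant of each family, members at 0 in a group and those at the minimum mean, and of the partner genes for those past the threshold and the 4 with the smallest p. The other members were described after their values were seen.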

Additional observations from a re-analysis of the deposited data

Results flagged for a closer look

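Among the 1428 genes left untested for their low mean were the axon guidance genes Ntn5, Slit1 and Sema3g. In 2 of them, Ntn5 and Slit1, normalised counts were higher in both Zac1 libraries than in both CAT libraries, while Sema3g overlapped. The share of such genes among all untested genes was not counted, so these 2 cannot be read against it. Ntn5 had a mean normalised count of 4.89 in the Zac1 libraries and 0 in the CAT libraries. Without Zac1 replicate 9 its count did not exceed the floor of 3 counts per CAT library. Slit1 had a mean of 8.80 in the Zac1 libraries and 5.06 in the CAT libraries. Its recovered counts were 4 and 6 in CAT replicates 9 and 12, and 12 and 6 in Zac1 replicates 9 and 12. The libraries numbered 12 thus held the same count of Slit1, and only the scaling to library size set them apart. Neither was tested.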

How the results depend on the processing

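The 1 axon guidance gene that rose was Efnb3. Without a trend 3 rose (Epha2, Plxnb3 and Sema7a, not Efnb3), among 79 of 11433 genes. Under equal column totals 2 rose (Efna3 and Efnb3), among 138 genes. edgeR's quasi-likelihood test gave 4 (Efnb3, Epha2, Plxnb3 and Sema7a) among 150 genes, and DESeq2 gave 2 (Efnb3 and Epha2) among 143. After the correction for GC content 0 rose. Epha2, Plxnb3 and Sema7a had a CAT mean under 10 and entered the test only through their Zac1 libraries. With single libraries left out the log2 fold change of Efnb3 ran from 0.94 to 1.77. No member fell under any of these settings. For all genes the 110 rises became 69 after the GC correction and ranged from 1 to 154 with single libraries left out, and falls ranged from 0 to 5. The 1 partner gene that rose became 0 without a trend, 2 in DESeq2, and 0 to 1 with single libraries left out. Other pseudocounts and no filter kept the counts of members and partners at 1. The cause of these shifts was not tested.

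With the replicate number as a block, limma called 9 of 45 members, 4 of 69 partner genes and 279 of 11433 genes as higher. The 9 members were Efna3, Efnb3, Epha2, Plxnb3, Sema3f, Sema4f, Sema4g, Sema6c and Sema7a. Of them Epha2, Plxnb3, Sema6c and Sema7a had a CAT mean under 10 and entered the test only through their Zac1 libraries. The labels do not say that a number marks a shared batch, and the differences of replicate 9 from replicate 12 in the 2 groups had a Pearson r of 0.2 across 11433 genes, which are not independent replicates, so this gives a hint of pairing only.

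The sign of the log2 fold change differed under an alternative in 16 tested members, of which 0 passed in any fit. Besides those given here they were Dpysl5, Epha7, Plxnc1, Sema3b and Sema6d. Under equal column totals Nrp1 was at 0.04 and Nrp2 at 0.02, and after the GC correction Nrp1 was at 0.07, Plxnb2 at -0.09, Slit3 at -0.06 and Unc5b at -0.13. With single libraries left out the range was -0.17 to 0.34 for Efna5, -0.31 to 0.01 for Ephb3, -0.06 to 1.05 for Ephb4, -0.29 to 0.24 for Nrp1, -0.17 to 0.07 for Nrp2, -0.04 to 0.57 for Plxna1, -0.01 to 0.07 for Plxnb2, -0.86 to 0.63 for Slit2, -0.15 to 0.25 for Slit3, -0.09 to 0.13 for Unc50 and -0.25 to 0.31 for Unc5b.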
